A study of Rattus norvegicus with 59 samples.

Results

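The lungs of male Fischer rats were compared 1 month after they had inhaled crystalline silica or air, the earliest of 6 times in the study, and the results below cover 10 of its 59 libraries. Both groups were of the inbred Fischer strain (F344/DuCrl), 3 months of age at purchase. The silica group (n = 5) was exposed in a whole-body inhalation chamber to 15 mg/m3 crystalline silica for 6 h per day on 5 days, and the air group (n = 5) was kept in the chamber with air only. Each library came from total RNA of a piece of the lung of 1 rat, and rats are numbered 1 to 5 within a group as names only. The later groups were killed 3, 6, 9, 12 and 18 months after exposure, each with its own air group. They held 49 libraries (5 per group, 4 in the 9-month air group). These libraries served to place the 1-month values, and also entered the choice of tested genes and the estimate of spread behind the 1-month tests. Rats of the later groups were also older.

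Inhaled silica crystals settle in the alveoli and are taken up by alveolar macrophages, where they can rupture the lysosome and set off inflammatory signalling. Neutrophils and monocytes are then drawn from the blood by chemokines and by complement fragments such as C5a. Alveolar type 2 cells, which make surfactant, enlarge and multiply, and in silicosis granulomas, excess surfactant lipid and scar tissue follow.

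Levels were deposited as FPKM, fragment numbers corrected for how long a transcript is and how many fragments its library mapped, a unit that allows comparison between genes. The table held 2887 complete entries, nearly all from chromosome 1 (2046 of the 2061 with a name known to the rat RefSeq annotation, 99.3%), and genes elsewhere were not analysed here. Testing was limited to the 1278 entries with 1 FPKM or more in 4 or more of the libraries. The tissue label was met by alveolar and airway genes: Napsa, the aspartic protease of type 2 cells that helps to process surfactant protein B, lay at 72.8 to 107 FPKM in the 10 libraries, and Cxcl17, a chemokine of mucosal epithelium, at 36.3 to 66.4 FPKM. Library pairs of a group correlated across genes at r = 0.942 to 0.983 for silica and 0.949 to 0.980 for air. Summed FPKM without the erratic entry LOC102553223 was 13440 to 16340 in silica lungs and 13490 to 15110 in air lungs. The median log2 level of the tested genes was 2.209 to 2.313 in silica libraries and 2.089 to 2.201 in air libraries. These medians did not overlap (means 2.252 in silica and 2.162 in air libraries; exact two-sided permutation p = 0.00794, the smallest that 5 against 5 can give). Every change below is read against that shift of 0.0902 on the log2 scale, whose part in the results was tested only by rescaling.

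At 1 month, 113 of the 1278 tested genes (8.84%) passed an adjusted p of 0.05 in silica against air lungs (limma on log2(FPKM + 0.5), Benjamini-Hochberg over all tested genes). Of these, 108 (8.45%) were higher and 5 (0.391%) were lower in silica lungs. With each library centred on its own median, 65 genes passed, 38 higher and 27 lower, so the share of higher calls was 95.6% without and 58.5% with centring (61.0% with quantile normalization, 47 higher and 30 lower). Leaving out the air rat numbered 2 left 44 calls, and leaving out the silica rat numbered 5 left 66. The 5 silica and 5 air values did not overlap in 103 genes that were higher (8.06% of those tested) and 10 that were lower (0.782%). Most changes were small: the median log2 change was 0.37 over the 108 higher calls and 0.066 over all tested genes.

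**Figure D1:**
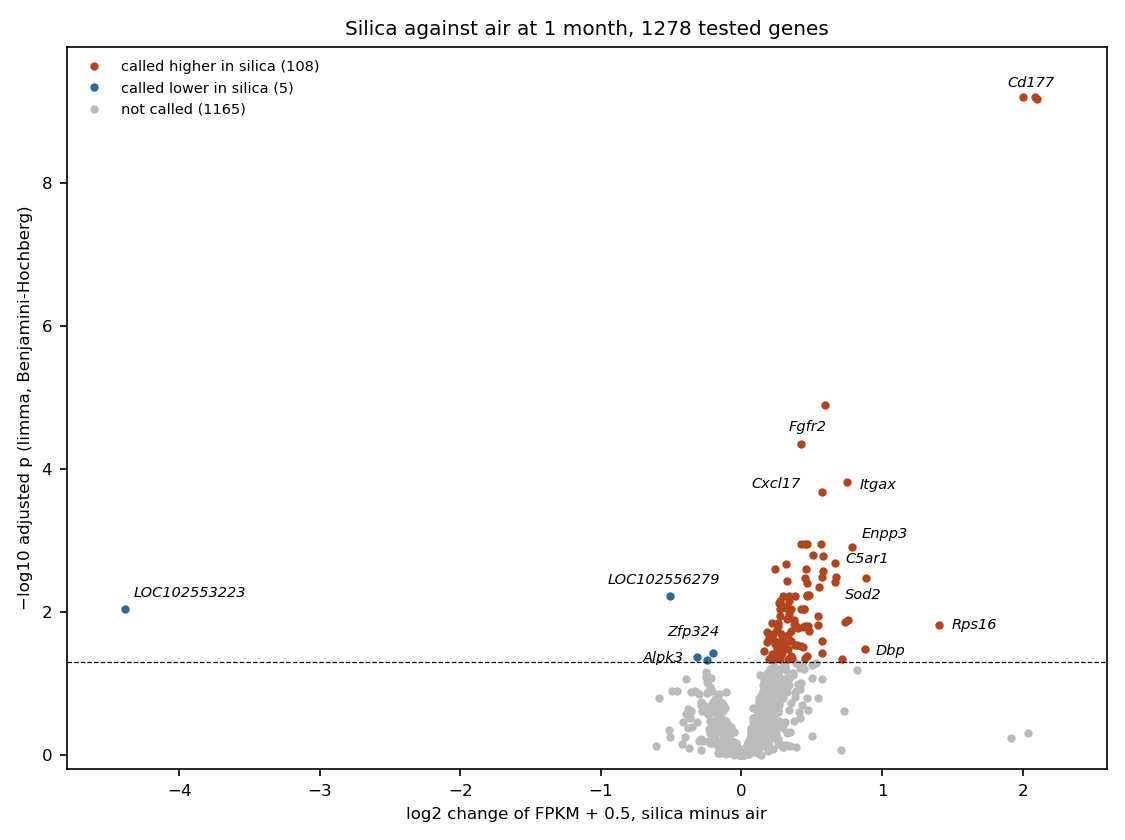
Each of the 1278 tested genes is a point, with its log2 change of FPKM + 0.5 in silica minus air at 1 month on the x axis and the −log10 of its limma adjusted p on the y axis. The 108 genes called higher in silica lie to the right above the dashed threshold of 0.05, led by Cd177, and the 5 called lower lie to the left.

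Cd177, a glycoprotein anchored on the surface of neutrophils and used in their passage through vessel walls, had the largest rise. Its promoter is printed here as that of the leading gene, 250 bases before to 50 bases after the RefSeq start on the minus strand of GRCr8, chr1:89488394-89488693. The motifs searched, on both strands, were TGANTCA (AP-1), the NF-kB consensus, TTGCNNAA (C/EBP), GAGGAAGT (an ETS motif of the PU.1 type), CACGTG (E-box), TTANGTAA (D-box) and TGACGTCA (CRE), and none of them was found in this window, so no letters are in capitals.
Cd177: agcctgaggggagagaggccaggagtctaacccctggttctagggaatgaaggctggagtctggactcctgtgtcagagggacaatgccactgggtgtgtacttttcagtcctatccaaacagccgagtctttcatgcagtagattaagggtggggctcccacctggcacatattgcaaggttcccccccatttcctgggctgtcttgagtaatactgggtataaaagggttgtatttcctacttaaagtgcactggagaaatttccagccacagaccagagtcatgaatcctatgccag

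Cd177 was at 29.1, 28.0, 29.2, 29.5 and 29.7 FPKM in the silica lungs of rats 1 to 5, against 7.19, 6.38, 3.57, 6.57 and 9.74 FPKM in air lungs. The silica lungs were nearly alike, with 29.1 ± 0.671 FPKM (SD, n = 5), while air lungs varied more, at 6.69 ± 2.203 FPKM (SD, n = 5), and no values overlapped. The change was 4.29-fold, a log2 difference of 2.102 ± 0.23 (SE; limma adjusted p = 6.76e-10). Entries LOC100909700 and LOC103691058 followed Cd177 over all 59 libraries (Pearson r = 0.999 and 0.990), and reads shared between such copies can leave the level of each uncertain.

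Of 9 tested genes in the neutrophil and phagocyte surface list, 4 were higher and 0 lower, where 8.45% of all tested genes were called higher. The list's median log2 change was 0.42 against 0.066 over all tested genes, and 3 members were called with median centring. This list and those below were chosen with earlier results of these data known, and 41 of the 172 tested list genes (23.8%) were called. Shares and medians above those of all tested genes are thus not independent of the choice of members. Ceacam10, a small member of the carcinoembryonic antigen family of cell adhesion proteins, had 4.23, 2.69, 3.97, 2.53 and 3.32 FPKM in silica lungs, against 1.62, 2.69, 1.67, 1.51 and 1.42 FPKM in air lungs. It rose 1.69-fold (log2 0.76 ± 0.20 SE; limma adjusted p = 0.0128), although air rat 2 lay above silica rat 4, and entry LOC103689942 followed it (r = 0.999 over 59 libraries). Over those libraries the level of Ceacam10 was otherwise most like that of Lpcat1 (r = 0.926) and Napsa (r = 0.923), both of the type 2 cell list below. The receptor gene for the complement fragment C5a, C5ar1, was at 5.92, 6.97, 5.84, 5.99 and 6.94 FPKM in silica lungs, against 3.52, 4.05, 3.02, 3.37 and 5.35 FPKM in air lungs. C5ar1 did not overlap between groups and rose 1.59-fold (log2 0.67 ± 0.14 SE; limma adjusted p = 0.00208). C5ar2, the second receptor for C5a, was at 5.18 to 6.39 FPKM in silica lungs and 3.99 to 4.93 FPKM in air lungs, also without overlap (log2 0.33 ± 0.11 SE; adjusted p = 0.0452, and not past 0.05 with either rescaling). The other members, among them the integrin alpha M gene Itgam (4.19 ± 0.457 FPKM in silica and 2.99 ± 0.404 FPKM in air lungs, SD, n = 5 each; adjusted p = 0.201) and the urokinase receptor gene Plaur (3.98 ± 0.525 FPKM in silica and 2.85 ± 0.342 FPKM in air lungs; adjusted p = 0.121), did not pass. The formyl peptide receptor genes Fpr1, Fpr2 and Fpr3, which neutrophils use to find bacteria, stayed under 1 FPKM in all 10 libraries and were not tested. In a whole piece of lung, more cells of a type and more RNA of a gene per cell cannot be told apart.

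Some genes of myeloid receptors and of leukocyte integrins rose as well. Itgax encodes integrin alpha X (CD11c), carried by alveolar macrophages and dendritic cells. Its promoter holds a single AP-1 match, shown in capitals, 56 bases before the start on the plus strand of GRCr8 at chr1:192149799-192150098.
Itgax: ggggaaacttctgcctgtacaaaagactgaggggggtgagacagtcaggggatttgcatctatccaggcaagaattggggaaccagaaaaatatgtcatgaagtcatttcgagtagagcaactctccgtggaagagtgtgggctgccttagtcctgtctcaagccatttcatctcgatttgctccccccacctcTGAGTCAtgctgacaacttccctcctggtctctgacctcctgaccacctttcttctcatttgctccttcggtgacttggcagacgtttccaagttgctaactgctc

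Itgax was at 7.64, 6.92, 7.58, 8.15 and 7.84 FPKM in silica lungs, against 4.77, 4.38, 3.87, 4.61 and 4.07 FPKM in air lungs. The lowest silica lung was well above the highest air lung, and the change was 1.68-fold (log2 0.75 ± 0.13 SE; limma adjusted p = 1.55e-04). Itgal, the alpha L chain of the LFA-1 integrin of leukocytes, was at 14.8 to 16.4 FPKM in silica lungs and 12.1 to 12.4 FPKM in air lungs (log2 0.34 ± 0.09 SE; adjusted p = 0.00927). Of the 10 tested genes of leukocyte integrins and signalling, those 2 were higher and 0 lower, where 8.45% of all tested genes were called higher. The median log2 change of the 10 was 0.28. Coro1a, an actin regulator of leukocytes, had 40.4 ± 5.15 FPKM in silica and 32.2 ± 3.33 FPKM in air lungs (SD, n = 5 each) and did not pass (adjusted p = 0.0662). Fcgrt, the neonatal Fc receptor, was lower at 26.5 ± 1.77 FPKM in silica and 31.7 ± 0.840 FPKM in air lungs, with an adjusted p of 0.0694, and was called lower under both rescalings.

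Of 17 tested myeloid receptors and adaptors, 5 were higher and 0 lower, with a median log2 change of 0.31, where 8.45% of all tested genes were called higher. With median centring 2 of them, C5ar1 and Siglec8, were called, and the same pair was called without air rat 2. Siglec8, a lectin that binds sialic acid, was at 3.95 to 4.63 FPKM in silica lungs and 2.56 to 3.44 FPKM in air lungs (log2 0.51 ± 0.11 SE; adjusted p = 0.00159). Tyrobp, the DAP12 adaptor through which many activating myeloid receptors signal, was at 86.2 to 103 FPKM in silica lungs and 61.5 to 82.3 FPKM in air lungs (log2 0.44 ± 0.14 SE; adjusted p = 0.0312). Oscar, a collagen-binding receptor of osteoclasts and other myeloid cells, was named after its values were seen because its mean is under 1 FPKM, with 0.734 ± 0.127 FPKM in silica and 0.403 ± 0.107 FPKM in air lungs (SD, n = 5 each; adjusted p = 0.0158). Anpep, aminopeptidase N of myeloid and epithelial surfaces, was at 24.4 to 29.7 FPKM in silica lungs and 16.6 to 24.2 FPKM in air lungs, and rose 1.48-fold (log2 0.56 ± 0.11 SE; adjusted p = 0.00112). The highest Anpep value in air belonged to rat 5, and the other air lungs reached 18.6 FPKM.

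**Figure D2:**
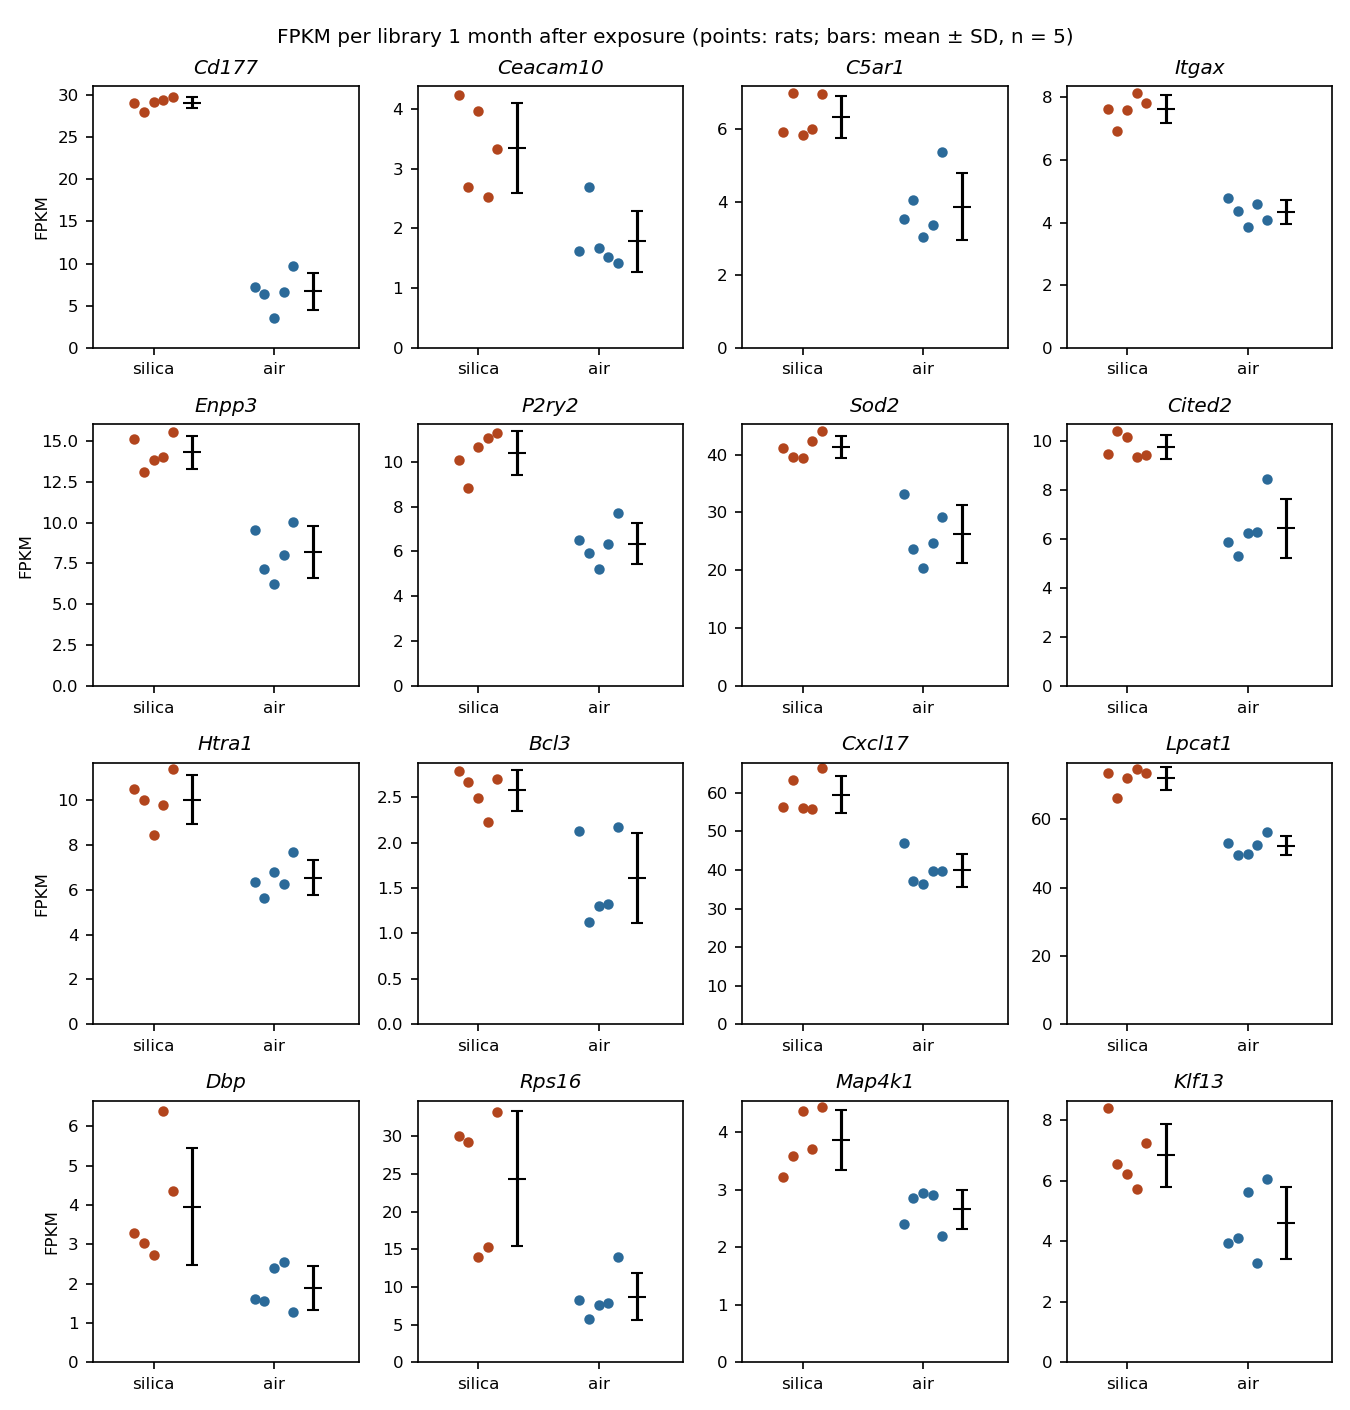
FPKM of each of the 5 silica and 5 air libraries at 1 month is shown as a point for 16 genes described in the text, on linear axes from 0, with silica left of air and the mean ± SD (n = 5) beside the points. Cd177 lies near 29.1 FPKM in every silica lung and between 3.57 and 9.74 FPKM in air lungs.

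Genes of extracellular nucleotide signalling and of oxidant defence formed a further group. Enpp3, an ectoenzyme that splits nucleotides outside the cell, was at 15.1, 13.1, 13.8, 14.0 and 15.6 FPKM in silica lungs, against 9.57, 7.17, 6.26, 7.99 and 10.02 FPKM in air lungs. Enpp3 rose 1.72-fold with no overlap (log2 0.78 ± 0.16 SE; limma adjusted p = 0.00123). P2ry2, the receptor for extracellular ATP and UTP, was at 10.1, 8.83, 10.7, 11.1 and 11.3 FPKM in silica lungs, against 6.53, 5.92, 5.23, 6.33 and 7.73 FPKM in air lungs. It too was higher in every silica lung than in any air lung (1.59-fold, log2 0.67 ± 0.15 SE; adjusted p = 0.00331). Enpp3 and P2ry2 were the 2 calls among 5 tested members of that list, where 8.45% of all tested genes were called higher. Sod2, the superoxide dismutase of mitochondria, was at 41.2, 39.5, 39.4, 42.4 and 44.0 FPKM in silica lungs, against 33.1, 23.7, 20.5, 24.7 and 29.2 FPKM in air lungs. Sod2 rose 1.58-fold without overlap (log2 0.66 ± 0.15 SE; adjusted p = 0.00382). Of 8 tested genes of oxidant defence, haem and iron, Sod2 and the selenoprotein gene Sepw1 (12.1 ± 0.902 FPKM in silica and 9.49 ± 0.815 FPKM in air lungs, SD, n = 5 each; adjusted p = 0.0108) were called, beside 8.45% of all tested genes called higher, and Sepw1 was not called with either rescaling. Ftl1, the light chain of the iron store ferritin, was at 127 ± 4.25 FPKM in silica and 98.3 ± 13.2 FPKM in air lungs and did not pass (adjusted p = 0.138).

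Metabolic and regulatory genes with larger changes were Cited2, Arg1, Gpi and Srd5a1. Cited2, a coregulator that restrains hypoxia-inducible factors, was at 9.46, 10.4, 10.2, 9.34 and 9.43 FPKM in silica lungs, against 5.88, 5.32, 6.23, 6.27 and 8.44 FPKM in air lungs. It rose 1.496-fold without overlap (log2 0.58 ± 0.12 SE; limma adjusted p = 0.00165). Arg1, the arginase that rodent macrophages can use to divert arginine from nitric oxide synthesis, was at 8.10 to 9.53 FPKM in silica lungs and 4.58 to 6.60 FPKM in air lungs (log2 0.57 ± 0.18 SE; adjusted p = 0.0378, not past 0.05 with either rescaling). Gpi, glucose-6-phosphate isomerase of glycolysis, was at 27.6 to 32.1 FPKM in silica lungs and 20.5 to 26.3 FPKM in air lungs (adjusted p = 0.00371). These 3 were the calls among 10 tested genes of arginine, hypoxia and metabolic stress, beside 8.45% of all tested genes called higher. Ldha, lactate dehydrogenase A, of the same list had 33.1 ± 1.79 FPKM in silica and 27.8 ± 2.22 FPKM in air lungs (SD, n = 5 each; adjusted p = 0.114). Srd5a1, a steroid 5-alpha reductase, was at 2.68 to 3.67 FPKM in silica lungs and 1.54 to 2.22 FPKM in air lungs (log2 0.55 ± 0.13 SE; adjusted p = 0.00444).

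Several surfactant and airway genes were higher in silica lungs. Lpcat1 encodes the enzyme with which type 2 cells make the main phospholipid of surfactant. Its promoter has 1 match to the NF-kB consensus, in capitals, 59 bases before the start, on the minus strand of GRCr8 at chr1:31644897-31645196.
Lpcat1: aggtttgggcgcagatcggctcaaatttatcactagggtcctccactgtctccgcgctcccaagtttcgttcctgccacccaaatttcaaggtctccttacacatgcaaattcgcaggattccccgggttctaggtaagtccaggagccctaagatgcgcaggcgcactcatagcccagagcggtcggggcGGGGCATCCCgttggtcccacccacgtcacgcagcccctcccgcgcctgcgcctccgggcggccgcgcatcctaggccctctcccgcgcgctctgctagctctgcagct

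Lpcat1 was at 66.2 to 74.8 FPKM in silica lungs and 49.7 to 56.3 FPKM in air lungs (log2 0.46 ± 0.10 SE; limma adjusted p = 0.00252). Napsa averaged 99.3 ± 6.57 FPKM in silica and 75.1 ± 2.38 FPKM in air lungs (SD, n = 5 each), without overlap (log2 0.40 ± 0.11 SE; adjusted p = 0.0169, and 0.0670 at most among the alternatives). Cebpa, a transcription factor needed for type 2 cell maturation and for myeloid cells, was at 11.9 to 12.9 FPKM in silica lungs and 7.997 to 11.2 FPKM in air lungs (adjusted p = 0.0256). These were the 3 calls among 6 tested type 2 cell and lipid genes, beside 8.45% of all tested genes called higher. The median log2 change of the 6 was 0.38. With median centring Lpcat1 alone was called, and likewise without air rat 2. Dgat2, which completes triglycerides, had 9.44 ± 0.663 FPKM in silica and 6.81 ± 0.449 FPKM in air lungs (SD, n = 5 each; adjusted p = 0.0622). The summed FPKM of that list was 191.9 to 212.3 in silica and 150.4 to 162.8 in air lungs, and Lpcat1 and Napsa made up most of it in both groups.

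Cxcl17 was at 55.8 to 66.4 FPKM in silica lungs and 36.3 to 47.02 FPKM in air lungs, a 1.49-fold rise without overlap (log2 0.57 ± 0.10 SE; limma adjusted p = 2.14e-04). Folr1, folate receptor alpha of epithelia, was at 1.20, 0.991, 1.88, 1.86 and 2.11 FPKM in silica lungs, against 0.417, 0.973, 0.757, 0.797 and 0.893 FPKM in air lungs. The gap between the groups was narrow, as silica rat 2 lay just above air rat 2, and the change of log2 0.72 ± 0.24 (SE; adjusted p = 0.0455) did not pass under 11 of 19 alternatives. Spint2, an inhibitor of serine proteases at epithelial surfaces, was at 62.3 to 69.2 FPKM in silica lungs and 51.9 to 57.8 FPKM in air lungs (adjusted p = 0.00750). Dmbt1, a secreted scavenger protein of mucosa whose mean is under 1 FPKM and which was named after its values were seen, had 0.830 ± 0.119 FPKM in silica and 0.462 ± 0.0620 FPKM in air lungs (SD, n = 5 each; adjusted p = 0.00112). These 4 were the calls among 13 tested airway genes, beside 8.45% of all tested genes called higher. Cxcl17 and Dmbt1 were those called with median centring. Cyp2f4, a cytochrome of club cells, had 9.78 ± 1.12 FPKM in silica and 8.12 ± 2.18 FPKM in air lungs (adjusted p = 0.737). Fxyd5 and Fxyd3, small regulators of the sodium pump, were at 16.7 to 21.3 FPKM (Fxyd5) and 32.9 to 35.8 FPKM (Fxyd3) in silica lungs, and at 12.1 to 14.3 FPKM (Fxyd5) and 19.2 to 27.4 FPKM (Fxyd3) in air lungs. Their log2 changes were 0.54 ± 0.14 for Fxyd5 and 0.47 ± 0.15 for Fxyd3 (SE; adjusted p = 0.0116 and 0.0417). Fxyd5 was called under all 19 alternatives, and Fxyd3 was not called under 11 of them, both rescalings included.

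Bcl3 encodes a nuclear member of the IkB family that works with NF-kB dimers at their target genes. Its own promoter has 1 match to the NF-kB consensus, in capitals, 38 bases before the start, on the minus strand of GRCr8 at chr1:88613506-88613805.
Bcl3: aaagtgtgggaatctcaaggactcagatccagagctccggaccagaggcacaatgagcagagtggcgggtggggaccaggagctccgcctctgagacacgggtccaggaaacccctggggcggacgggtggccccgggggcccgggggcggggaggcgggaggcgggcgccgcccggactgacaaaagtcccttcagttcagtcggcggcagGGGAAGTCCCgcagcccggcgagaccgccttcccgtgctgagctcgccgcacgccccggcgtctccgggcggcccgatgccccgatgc

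Bcl3 was at 2.22 to 2.78 FPKM in silica lungs and 1.12 to 2.17 FPKM in air lungs (log2 0.57 ± 0.13 SE; limma adjusted p = 0.00331). Nfkbib, the inhibitor IkB beta, was at 2.91 to 3.31 FPKM in silica lungs and 1.28 to 2.69 FPKM in air lungs (log2 0.45 ± 0.10 SE; adjusted p = 0.00334). They were the 2 calls among 5 tested NF-kB and TNF regulators, where 8.45% of all tested genes were called higher. The ubiquitin-editing inhibitor Tnfaip3 had 3.95 ± 0.396 FPKM in silica and 3.68 ± 0.247 FPKM in air lungs (SD, n = 5 each; adjusted p = 0.498), and the NF-kB subunit gene Relb 3.42 ± 0.822 FPKM in silica and 3.18 ± 0.408 FPKM in air lungs (adjusted p = 0.759). The median log2 change of this list was 0.089, and it was −0.00080 with median centring. The NF-kB consensus was found in 7 of the 76 promoters of higher called genes with a RefSeq entry (9.21%), in 5.54% of 884 promoters of tested genes and in 4.18% of all 33465 promoters. AP-1 was found in 7 of the 76 (9.21%), in 5.88% of the tested and in 7.33% of all promoters. C/EBP was found in 4 (5.26%), against 9.28% of the tested and 10.6% of all promoters. The E-box was found in 9 (11.8%), against 10.7% of the tested and 6.42% of all promoters. The CRE was found in 4 (5.26%), against 3.62% of the tested and 1.83% of all promoters. The ETS motif was found in 2 (2.63%), against 2.38% and 2.42%, and the D-box in 0, against 1.13% and 2.24%. These counts of letters were not tested and say nothing of binding.

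Of 10 tested interferon response genes 2 were higher, Ifngr1 and Ifitm3, where 8.45% of all tested genes were called higher. The list's median log2 change was 0.052, or −0.039 with median centring. Ifngr1, the ligand-binding chain of the interferon gamma receptor, was at 23.3 to 28.2 FPKM in silica lungs and 16.2 to 21.1 FPKM in air lungs (log2 0.42 ± 0.09 SE; limma adjusted p = 0.00112). Ifitm3, which blocks the entry of enveloped viruses, was at 59.2 to 70.2 FPKM in silica lungs and 45.5 to 55.3 FPKM in air lungs (adjusted p = 0.0279, not past 0.05 with either rescaling). Isg20, an exonuclease induced by interferon, had 10.3 ± 2.23 FPKM in silica and 9.52 ± 1.04 FPKM in air lungs (SD, n = 5 each; adjusted p = 0.754).

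Of 12 tested genes of the lysosome and secreted proteases, 4 were higher and 0 lower, where 8.45% of all tested genes were called higher. With median centring Tpp1 alone was called, and without air rat 2, or without silica rat 5, Prcp and Tpp1 were. Tpp1, a lysosomal peptidase, was at 16.7 to 17.8 FPKM in silica lungs and 12.8 to 16.4 FPKM in air lungs (log2 0.32 ± 0.07 SE; limma adjusted p = 0.00216), and the lysosomal carboxypeptidase gene Prcp at 11.8 to 12.3 FPKM in silica and 8.12 to 9.28 FPKM in air lungs (adjusted p = 0.0164). Napsa and Hps5, a factor for building lysosome-related organelles, were the others, with 2.73 ± 0.219 FPKM of Hps5 in silica and 2.31 ± 0.148 FPKM in air lungs (SD, n = 5 each; adjusted p = 0.0232). Pld3, a lysosomal nuclease, had 27.5 ± 0.404 FPKM in silica and 19.4 ± 2.46 FPKM in air lungs, with an adjusted p of 0.0564. Ctsc, the cathepsin that activates the serine proteases of neutrophils, had 61.6 ± 2.77 FPKM in silica and 54.5 ± 2.85 FPKM in air lungs (adjusted p = 0.134).

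Among 18 tested genes of matrix, TGF-beta and fibroblasts, 4 were higher and 0 lower, where 8.45% of all tested genes were called higher. The tested genes of all lists together had 23.8% called, so these 4 calls do not set this list apart. The median log2 change of the 18 was 0.12, against 0.066 over all tested genes, and 0.029 with median centring. Htra1, a secreted protease that acts on matrix and TGF-beta signalling, was at 10.52, 9.99, 8.44, 9.77 and 11.4 FPKM in silica lungs, against 6.37, 5.62, 6.82, 6.27 and 7.69 FPKM in air lungs. It rose 1.49-fold without overlap (log2 0.58 ± 0.13 SE; limma adjusted p = 0.00272). Fgfr2, a receptor for fibroblast growth factors on lung epithelium, was at 22.5 to 25.6 FPKM in silica lungs and 16.9 to 19.8 FPKM in air lungs (log2 0.42 ± 0.07 SE; adjusted p = 4.48e-05). Tgfb1, the cytokine that drives fibroblasts to make matrix, was at 2.90 to 4.19 FPKM in silica lungs and 1.97 to 3.20 FPKM in air lungs, with overlap (log2 0.40 ± 0.12 SE; adjusted p = 0.0290). Furin, a convertase that cleaves the TGF-beta precursor, was at 9.85 to 12.7 FPKM in silica lungs and 7.37 to 11.8 FPKM in air lungs (adjusted p = 0.0256). Htra1 and Fgfr2 were called higher under both rescalings and Tgfb1 and Furin were not, while Pcsk6 (2.2 ± 0.189 FPKM in silica and 2.64 ± 0.180 FPKM in air lungs, SD, n = 5 each) and Smoc2 (3.55 ± 0.326 FPKM in silica and 4.00 ± 0.117 FPKM in air lungs) were then called lower.

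Of 8 tested cell cycle genes 2 were higher, where 8.45% of all tested genes were. Prc1, which bundles microtubules when cells divide, was at 3.93 to 4.86 FPKM in silica lungs and 2.38 to 3.43 FPKM in air lungs (log2 0.48 ± 0.14 SE; limma adjusted p = 0.0187). Rrm1, the large subunit of ribonucleotide reductase, was at 5.15 to 6.03 FPKM in silica lungs and 4.28 to 5.04 FPKM in air lungs (adjusted p = 0.0264). The proliferation marker Mki67 had 2.48 ± 0.199 FPKM in silica and 1.78 ± 0.197 FPKM in air lungs (SD, n = 5 each; adjusted p = 0.0513). With median centring, and also without air rat 2, 0 of the 8 were called.

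Among single genes, Rps16, a protein of the small ribosomal subunit, had the second largest rise of a gene with a symbol. It was at 30.1, 29.2, 14.1, 15.4 and 33.2 FPKM in silica lungs, against 8.28, 5.74, 7.62, 7.92 and 14.0 FPKM in air lungs. The silica values fell into a high and a low set, and silica rat 3 was almost level with air rat 5 (2.65-fold, log2 1.41 ± 0.39 SE; limma adjusted p = 0.0154, and 0.0650 without air rat 2). Ribosomal and nucleolar genes as a list had 2 higher calls of 17 tested, a share near the 8.45% of all tested genes, and 0 calls without air rat 2 or without silica rat 5. The other call was Rpl28, with 53.6 to 64.0 FPKM in silica lungs and 42.2 to 52.3 FPKM in air lungs (adjusted p = 0.0290, not past 0.05 with either rescaling). Their median log2 change was 0.058, and −0.033 with median centring. Dbp, a clock-controlled transcription factor whose transcript cycles over the day, was at 3.29, 3.04, 2.73, 6.40 and 4.35 FPKM in silica lungs, against 1.61, 1.57, 2.39, 2.56 and 1.27 FPKM in air lungs. It did not overlap (log2 0.88 ± 0.27 SE; adjusted p = 0.0327, not past 0.05 with either rescaling), and Arntl, a core clock gene, had 7.07 ± 0.737 FPKM in silica and 7.77 ± 0.985 FPKM in air lungs (SD, n = 5 each; adjusted p = 0.597). The hour of death was not given in the sources used here, and its part in the Dbp values was not tested. Paf1, a subunit of the elongation complex named after it, was at 6.69 to 8.50 FPKM in silica lungs and 4.83 to 6.47 FPKM in air lungs (log2 0.47 ± 0.11 SE; adjusted p = 0.00607). Ppp4c, the catalytic subunit of protein phosphatase 4, was at 10.8 to 12.9 FPKM in silica lungs and 7.43 to 9.72 FPKM in air lungs (log2 0.47 ± 0.11 SE; adjusted p = 0.00577).

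**Figure D3:**
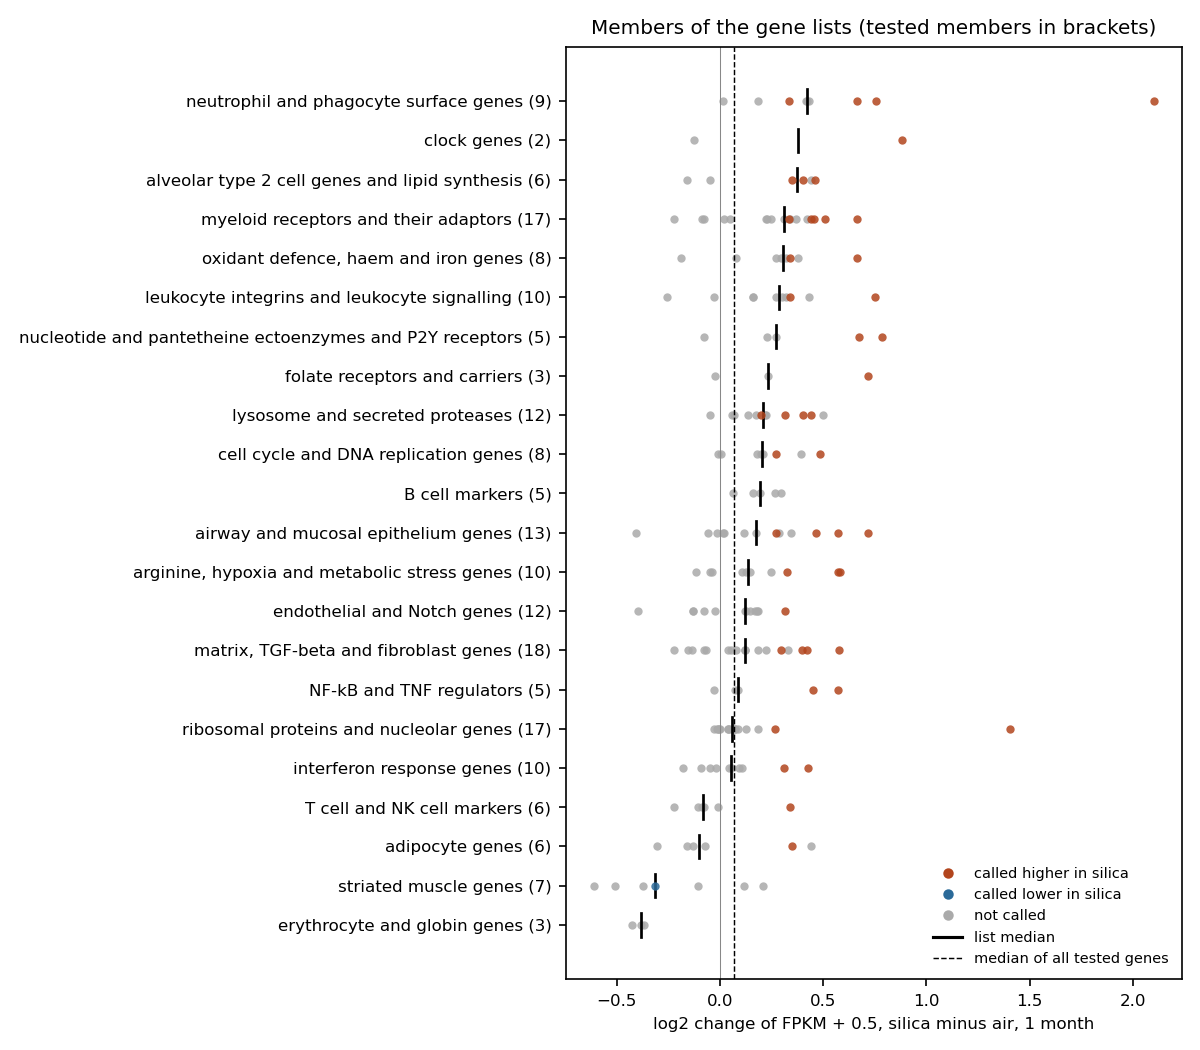
For each gene list, the points are the log2 changes of its tested members in silica minus air at 1 month, with called members in colour, a bar at the list's median and a dashed line at the median of all tested genes. The neutrophil and phagocyte list has a median of 0.42 and the type 2 cell list 0.38, against 0.066 for all tested genes. The lists were chosen with earlier results of these data known, so their medians are not independent of that choice.

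For lists of other cell types that a piece of lung can hold, the counts of calls are read against the 8.45% of all tested genes called higher, and nothing particular to these lists is drawn from them. None of 5 tested B cell markers was called (0 calls in limma and 0 at an unadjusted p under 0.05; median log2 change 0.19), and their summed FPKM was 14.0 to 18.1 in silica and 10.48 to 15.1 in air lungs. Itgal was the 1 call among 6 markers of T and NK cells, whose summed FPKM was 51.4 to 56.1 in silica and 50.5 to 57.5 in air lungs and whose median change was −0.084. Nkg7, a granule protein of cytotoxic lymphocytes, had 11.6 ± 1.61 FPKM in silica and 12.5 ± 2.72 FPKM in air lungs (SD, n = 5 each; adjusted p = 0.800). Among 12 endothelial and Notch genes the call was Eml2, a microtubule-binding protein (6.40 ± 0.386 FPKM in silica and 5.07 ± 0.509 FPKM in air lungs; adjusted p = 0.00856), which was not called with either rescaling, and Ehd2 was called lower with median centring. The 3 tested erythrocyte genes had a median change of −0.38 with no call in limma and 1 at an unadjusted p under 0.05, and Hbb, beta globin, had 1380 ± 162 FPKM in silica and 1799 ± 229.9 FPKM in air lungs (adjusted p = 0.227). Hbe2 and Hbg1 of that list were at 0 in all 10 libraries. Summed FPKM was 67.1 to 69.8 in silica and 33.4 to 41.1 in air lungs for the neutrophil list, and 1277 to 1780 in silica and 1613 to 2203 in air lungs for the erythrocyte list, and the part of blood content in the results was not tested. Most of the difference in the neutrophil sum came from Cd177 alone, with means of 29.1 FPKM in silica and 6.69 FPKM in air lungs. The 6 tested adipocyte genes had 1 call, Cebpa, and a summed FPKM of 42.0 to 44.5 in silica and 36.8 to 44.5 in air lungs.

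Lower calls in silica lungs numbered 27 with median centring and 30 with quantile normalization. Without rescaling 5 entries were called lower, and 2 of these 5 carry an informative symbol. Alpk3, a kinase of cardiac muscle, was at 1.38, 1.31, 1.51, 1.18 and 1.22 FPKM in silica lungs, against 1.6, 1.76, 1.99, 2.12 and 1.39 FPKM in air lungs. The groups overlapped at air rat 5, and the log2 change of −0.32 ± 0.10 (SE; adjusted p = 0.0434 in limma) was lost under 10 of 18 alternatives. Striated muscle genes varied between single libraries, with a summed FPKM of 10.4 to 54.1 in silica and 14.1 to 83.6 in air lungs. Their median log2 change was −0.32, or 0.10 without air rat 2, and the part of muscle content in the Alpk3 value was not tested. Zfp324, a zinc finger protein, was at 2.04, 2.35, 2.27, 2.01 and 2.04 FPKM in silica lungs, against 2.67, 2.45, 2.48, 2.50 and 2.56 FPKM in air lungs, without overlap (log2 −0.20 ± 0.06 SE; adjusted p = 0.0378), and was not called under 10 of 19 alternatives. The other 3 have placeholder names and were chosen after their values were seen. LOC102556279 was at 3.79 to 5.73 FPKM in silica lungs and 6.12 to 8.51 FPKM in air lungs (adjusted p = 0.00607), and LOC100360638 at 2.22 to 2.50 FPKM in silica and 2.65 to 3.54 FPKM in air lungs (adjusted p = 0.0478). LOC102553223 was at 7.96, 37.5, 25.8, 12.1 and 9.17 FPKM in silica lungs, against 340.4, 2618, 143.5, 1660 and 18.7 FPKM in air lungs, with overlap. Its log2 change was −4.38 ± 1.14 (SE; adjusted p = 0.00919, and 0.0650 without air rat 2), and air rats 2 and 4, where it was highest, also held the most of the striated muscle sum in air.

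Many of the changes were seen again at later months, each against its own air group. Of the 108 genes higher at 1 month, 66 were also called higher at month 3 (61.1% of the 1-month list and 32.5% of that month's list, with 15.9% of tested genes called higher then). The shared count was 75 at month 6 (69.4% and 27.7%; background 21.2%), 70 at month 9 (64.8% and 28.1%; background 19.5%), 72 at month 12 (66.7% and 38.7%; background 14.6%) and 55 at month 18 (50.9% and 36.4%; background 11.8%). The same 41 genes (38.0% of the 108) were called higher at all 5 later months, where 6.26% of all tested genes were. Median centring of every library left 19 genes called higher at all 6 times, and leaving out the 1-month air rat 2 left 24.

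Cd177 averaged 29.1, 45.0, 42.4, 41.1, 34.3 and 30.0 FPKM in silica lungs at months 1, 3, 6, 9, 12 and 18, against 6.69, 5.33, 11.7, 12.9, 12.3 and 7.28 FPKM in air lungs. It did not overlap between groups at any month but 12, when the lowest silica lung had 12.7 FPKM and the highest air lung 16.3 FPKM. Sod2 averaged 41.3, 56.0, 52.6, 58.4, 52.2 and 49.6 FPKM in silica lungs over the same months, against 26.2, 21.9, 26.7, 26.0, 26.3 and 22.5 FPKM in air lungs. Itgax averaged 7.63, 9.59, 8.09, 7.01, 7.30 and 7.54 FPKM in silica lungs, against 4.34, 4.34, 4.197, 4.47, 4.96 and 4.81 FPKM in air lungs. Enpp3 averaged 14.3 FPKM in silica lungs at month 1 and 26.1 FPKM at month 9, against 8.20 and 10.2 FPKM in air lungs. Lpcat1 averaged 72.0 FPKM in silica lungs at month 1 and 94.6 FPKM at month 9, against 52.2 and 48.7 FPKM in air lungs. Ceacam10, C5ar1, P2ry2, Cited2, Arg1, Cxcl17, Napsa and Tyrobp were likewise called at all later months.

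**Figure D4:**
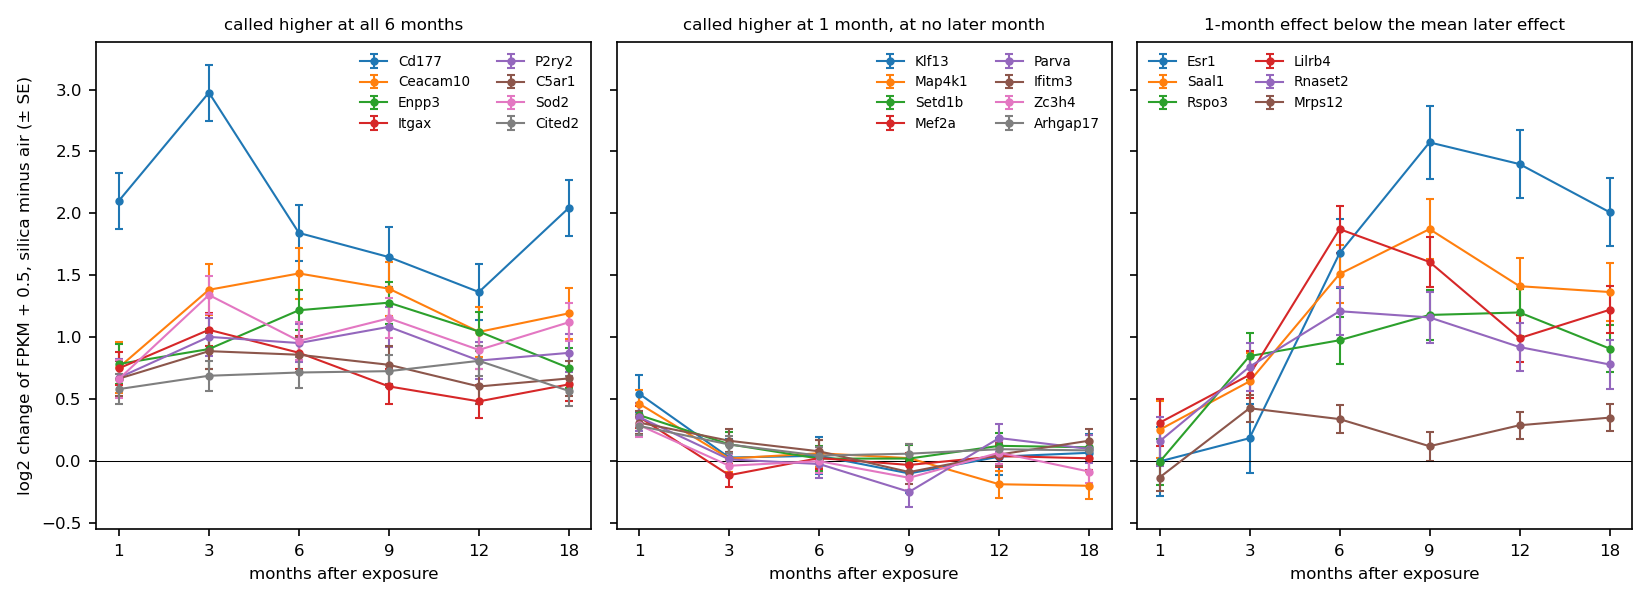
The log2 change of FPKM + 0.5 in silica minus air is drawn for each month after exposure, with bars of 1 SE, for 8 genes called at all 6 months (left), 8 called at 1 month and at no later month (middle) and 6 whose 1-month change was below the mean later change (right). Cd177 stays above 1 at every month, while Lilrb4 is at 0.31 at 1 month and above 0.5 at each later month.

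At the other end, 14 of the 108 genes (13.0%) were called higher at no later month, against 68.5% of all tested genes, and 12 of them carry a symbol. They included Map4k1, Klf13, Mef2a, St5, Arhgap17, Parva, Setd1b, Zc3h4 and Ifitm3. Klf13, a transcription factor of the Krüppel-like family, was at 5.74 to 8.39 FPKM in silica lungs and 3.29 to 6.05 FPKM in air lungs (log2 0.54 ± 0.15 SE; limma adjusted p = 0.0154, not past 0.05 with either rescaling). Mef2a, a transcription factor of muscle and other cells, was at 15.6 to 17.6 FPKM in silica lungs and 10.5 to 15.8 FPKM in air lungs, with overlap (log2 0.36 ± 0.09 SE; adjusted p = 0.00915). It was not called with either rescaling or without air rat 2. Passing at 1 month and missing the threshold later does not show a difference between times, so the 1-month change was tested directly against the mean of the 5 later changes.

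That test called 20 genes (1.56%), 11 with a higher (0.861%) and 9 (0.704%) with a lower change at 1 month. Map4k1, a kinase of blood cells that limits lymphocyte receptor signalling, was at 3.22, 3.58, 4.37, 3.70 and 4.43 FPKM in silica lungs, against 2.41, 2.85, 2.94, 2.90 and 2.2 FPKM in air lungs. It did not overlap at 1 month (log2 0.46 ± 0.11 SE; limma adjusted p = 0.00390). The change was larger than the later mean by 0.52 ± 0.12 (SE; limma adjusted p = 0.0134, and 0.0554 without air rat 1). Map4k1 averaged 3.86, 3.39, 3.58, 3.66, 3.48 and 3.77 FPKM in silica lungs over the 6 months, against 2.66, 3.35, 3.38, 3.55, 4.07 and 4.37 FPKM in air lungs. The silica level thus varied little, and the 1-month air level was the lowest of the air means. St5, a regulator of Rab GTPases, was at 12.9, 11.3, 11.4, 13.3 and 13.0 FPKM in silica lungs, against 10.3, 8.63, 10.4, 10.2 and 11.2 FPKM in air lungs, and its difference from the later mean was 0.32 ± 0.08 (adjusted p = 0.0145). Air lungs again had less St5 at 1 month, 10.2 FPKM, than at later months, 12.0 to 13.0 FPKM.

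Gltscr2, a nucleolar protein, was at 25.9, 23.9, 26.3, 28.7 and 27.3 FPKM in silica lungs, against 22.3, 21.9, 24.8, 25.2 and 21.9 FPKM in air lungs, with a difference from the later mean of 0.28 ± 0.07 (SE; limma adjusted p = 0.0328). Synm, an intermediate filament protein of muscle, was at 18.7, 14.8, 14.9, 15.7 and 16.9 FPKM in silica lungs, against 14.1, 12.0, 14.8, 16.4 and 19.0 FPKM in air lungs. The groups overlapped at 1 month (adjusted p = 0.740), and later air means were 21.5 to 24.1 FPKM beside later silica means of 14.3 to 17.2 FPKM (difference 0.55 ± 0.14 SE; adjusted p = 0.0321). The Synm difference was not called under 8 of 23 alternatives. Utrn, a relative of dystrophin, was at 30.6, 29.3, 30.5, 31.5 and 30.4 FPKM in silica lungs, against 28.4, 26.6, 30.4, 30.1 and 32.6 FPKM in air lungs, with later means of 28.8 to 30.5 FPKM in silica and 34.2 to 35.2 FPKM in air lungs (difference 0.26 ± 0.06 SE; adjusted p = 0.0236). Nell1, a secreted signalling protein, was at 3.01, 2.57, 3.27, 3.09 and 3.62 FPKM in silica lungs, against 2.15, 2.32, 3.71, 1.97 and 3.10 FPKM in air lungs. Its silica mean was 1.24 FPKM at month 9, against 2.196 FPKM in air lungs of that month (difference 0.69 ± 0.15 SE; adjusted p = 0.0103). Of 23 alternatives, the difference from the later mean was not called under 5 for Gltscr2, 3 for Utrn, 3 for St5 and 1 for Nell1.

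Other genes changed less at 1 month than later. Lilrb4, an inhibitory receptor of macrophages and other myeloid cells, was at 10.7, 11.3, 13.2, 13.1 and 14.0 FPKM in silica lungs, against 9.08, 10.1, 11.7, 10.9 and 8.13 FPKM in air lungs, and did not pass at 1 month (log2 0.31 ± 0.19 SE; limma adjusted p = 0.349). Its later silica means were 16.03 to 32.2 FPKM and its later air means 8.48 to 11.9 FPKM, and the 1-month change differed from the later mean by −0.97 ± 0.21 (log2, SE; adjusted p = 0.0103). Rnaset2, a lysosomal and secreted ribonuclease, was at 14.2, 12.7, 13.4, 15.8 and 14.2 FPKM in silica lungs, against 14.2, 12.8, 12.4, 14.1 and 9.61 FPKM in air lungs. At later months it averaged 17.8 to 28.9 FPKM in silica and 10.3 to 12.5 FPKM in air lungs (difference −0.81 ± 0.21 SE; adjusted p = 0.0346). Mrps12, a protein of the mitochondrial ribosome, was at 9.04, 7.84, 6.73, 7.72 and 9.74 FPKM in silica lungs, against 10.2, 9.01, 9.33, 9.36 and 7.30 FPKM in air lungs (difference −0.44 ± 0.12 SE; adjusted p = 0.0478). The differences of Rnaset2 and Mrps12 were each not called under 12 of 23 alternatives. Leaving out a 1-month library gave between 4 calls (without air rat 1) and 68 calls (without air rat 5) in this comparison.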

How the data were processed

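Per the labels' protocols, lung RNA came from miRNeasy kits with DNase, was depleted with Ribo-Zero Gold and went into TruSeq Stranded Total RNA libraries. The authors deposited FPKM, per the title of their table, with a column for each library. The submitters' processing notes list Cufflinks 2.1.1, TopHat2 2.0.9 with Bowtie2 2.2.9, Trimmomatic 0.35 and also bcl2fastq 2.19, without roles. Build, annotation and strand setting are not given in the sources used here. Of 2888 entries the last was incomplete (31 of 59 values) and was dropped, and 0 columns stayed unmatched.

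Since FPKM is no count, count models were not used. All 12 groups (59 libraries, 1 per rat) were fitted together on log2(FPKM + 0.5), in limma 3.58.1 under R 4.3.3, with a trend of variance on level and no covariate, since the labels give no batch. Residual degrees of freedom were 47 (prior 3.41). Folds refer to log2(FPKM + 0.5) and understate the change of low genes. Calls needed a Benjamini-Hochberg adjusted p under 0.05 over the 1278 genes with 1 FPKM or more in 4 or more libraries (44.3% of 2887). The median SE of a 1-month log2 change was 0.0994. A further contrast set the 1-month change against the mean of the 5 later changes. P-values measure the spread between rats. Read depth is not in the files. Steps of low FPKM values gave a relative depth of 0.759 to 1.04 in silica and 0.788 to 1.04 in air libraries (exact two-sided permutation p = 0.746), with 63.7% of low values in 261 entries within 0.1 (log2) of 1 step, too few to recover reads.

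Named genes needed a symbol and a mean of 1 FPKM at 1 month. They were the 25 largest called rises and up to 10 falls, called members of 22 gene lists (355 genes, of which 172 were tested and 41, or 23.8%, called), up to 6 genes in each direction of the further contrast, and up to 8 genes called at all or at no later month. A gene that this rule names is not reported here. Members, lists and rule were chosen with earlier results of these data known. Lists are described by counts and medians only. RefSeq tables (GRCr8) gave names and promoters, and no coordinate was converted. Alternatives were other pseudocounts and filters, median centring, quantile normalization, no intensity trend, array weights, a fit of the 1-month libraries alone, and leaving out each 1-month library or each later month. List counts under both rescalings and without air rat 2 or silica rat 5 were added after the data were seen. The fit was tested on simulated data. Plots were drawn in Python 3.11.15 with matplotlib 3.10.9.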

Additional observations from a re-analysis of the deposited data

Results flagged for a closer look

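In 6 of 134 groups of 5 examined, 1 library stood far from the other 4, and chance alone gives about 1 in 20. They were Anpep in air rat 5 (24.19 FPKM, next 18.58), Tpp1 in air rat 5 (16.41 FPKM, next 13.34), Arhgap17 in air rat 2 (5.201 FPKM, next 5.827), Ceacam10 in air rat 2 (2.686 FPKM, next 1.671), LOC102556279 in air rat 1 (8.513 FPKM, next 6.521) and Prc1 in silica rat 4 (4.862 FPKM, next 4.131).

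For 10 genes chosen by the rule for named genes and 4 others the silica effect at 1 month differed from the mean effect of the 5 later months in limma's test of that difference (log2, adjusted over 1278 genes). It was larger at 1 month for Map4k1 (by 0.5191; adjusted p = 0.0134), Nell1 (by 0.6934; adjusted p = 0.0103), St5 (by 0.3225; adjusted p = 0.0145), Utrn (by 0.2563; adjusted p = 0.0236), Synm (by 0.5468; adjusted p = 0.0321), Gltscr2 (by 0.2818; adjusted p = 0.0328) and Mef2a (by 0.3673; adjusted p = 0.0478). The remaining differences were negative: −0.9688 for Lilrb4 (adjusted p = 0.0103), −0.8071 for Rnaset2 (adjusted p = 0.0346) and −0.4377 for Mrps12 (adjusted p = 0.0478). Esr1 (−1.772; adjusted p = 5.11e-04), Rspo3 (−1.03; adjusted p = 0.00526), Saal1 (−1.108; adjusted p = 0.0134) and LOC102553223 (−4.771; adjusted p = 0.0346) lie outside the rule for named genes and were chosen after their values were seen. Esr1, estrogen receptor alpha, had 0.327 ± 0.129 FPKM in silica and 0.327 ± 0.116 FPKM in air lungs at 1 month (SD, n = 5 each), and its mean later change was 1.77. At those levels Esr1 could reach the filter of 1 FPKM only through libraries of later months. Its lower change at 1 month is therefore not independent of how tested genes were selected. Rspo3 and Saal1 also averaged under 1 FPKM at 1 month, and the same limit may hold for them.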

How the results depend on the processing

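Of 56 changes of named genes at 1 month, 24 kept their call and direction under every alternative, among them Cd177, Itgax, Enpp3, P2ry2, C5ar1, Sod2, Cxcl17, Lpcat1, Fgfr2, Htra1, Cited2, Bcl3 and Map4k1, and 0 were reversed. Of 12 differences from the later mean, Esr1 and Lilrb4 did so under all 23 alternatives, and Rspo3 under the 22 in which it was tested. Esr1 and Rspo3 averaged under 1 FPKM at 1 month, and keeping a call does not remove the part of later libraries in their selection. The size of the Rspo3 difference ran from −1.654 to −0.7174 over the alternatives. Calls at 1 month numbered 113 (108 higher, 5 lower), but 65 with median centring (38 higher, 27 lower), 77 with quantile normalization (47 higher, 30 lower) and 198 with array weights (182 higher, 16 lower). With a pseudocount of 0.1, and also with no filter on low values, 3 genes were called lower. Median centring kept 38 of the 108 higher calls, and a fit of the 1-month libraries alone kept 74. Without each 1-month library in turn, calls ranged from 44 (without air rat 2; 43 higher, 1 lower) to 136 (without air rat 5; 131 higher, 5 lower), and were 66 without silica rat 5. Air rat 2 was the lowest air library in 54 of the 108 higher genes and air rat 5 the highest in 58. The difference from the later mean gave 20 calls (11 higher, 9 lower), but 11 with no filter (5 higher), 37 with quantile normalization (23 lower), 21 lower with median centring, 169 with array weights (100 higher, 69 lower), 38 without month 3 (25 higher) and 12 without month 9 (5 higher). Without a 1-month library it gave 4 (without air rat 1; 1 higher, 3 lower) to 68 (without air rat 5; 54 higher, 14 lower). Genes called higher at all 6 times numbered 41, but 19 with median centring, 21 with quantile normalization and 72 with array weights, and 24 (without air rat 2) to 41 (without air rat 5) without a 1-month library. The cause of these shifts was not tested. No paired analysis was possible because the titles give each rat a number of its own and replicate numbers are names only. FPKM without read numbers leave the counting error of low genes unknown.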

Other observations

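Over all 59 libraries the level of Rps16 was most like that of Paf1 (Pearson r = 0.922), Ifngr1 (r = 0.888), Zc3h4 (r = 0.860) and Htra1 (r = 0.844), a description that was chosen after the values were seen. Rps16 averaged 24.4, 29.9, 58.0, 41.2, 60.2 and 40.0 FPKM in silica lungs at months 1, 3, 6, 9, 12 and 18, against 8.71, 36.2, 46.7, 47.2, 29.5 and 40.4 FPKM in air lungs. The 1-month mean was the lowest of the 6 in silica and in air lungs alike. Paf1 averaged 7.74 FPKM in silica and 5.46 FPKM in air lungs at 1 month, with 7.85 to 10.3 FPKM in silica and 7.72 to 9.34 FPKM in air lungs later. Ifngr1 averaged 25.7 FPKM in silica and 19 FPKM in air lungs at 1 month, with 27.1 to 32.5 FPKM in silica and 26.3 to 29.1 FPKM in air lungs later. Zc3h4, an RNA-binding zinc finger protein, averaged 4.58 FPKM in silica and 3.68 FPKM in air lungs at 1 month, with 5.29 to 5.88 FPKM in silica and 5.47 to 6.01 FPKM in air lungs later. Mef2a averaged 16.6 FPKM in silica and 13.0 FPKM in air lungs at 1 month, with later means of 16.4 to 18.6 FPKM in silica and 16.7 to 19.6 FPKM in air lungs. The differences between months in air lungs, whose rats also differed in age, were not tested here.

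Dbp was lower in silica than in air lungs at month 3 only: its means were 3.96 FPKM in silica and 1.88 FPKM in air lungs at 1 month, and 2.43 FPKM in silica and 5.53 FPKM in air lungs at 3 months, without overlap at either time. At months 6, 9, 12 and 18 it averaged 3.985, 6.55, 5.65 and 6.11 FPKM in silica lungs, against 1.96, 2.765, 4.565 and 3.51 FPKM in air lungs. The groups did not overlap at month 9 and overlapped at months 6, 12 and 18.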
